A study of Mus musculus with 18 samples.

Results

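Pdx1, Neurog3 and Mafa, the transcription factors of the reprogramming mix used to turn pancreatic acinar cells into insulin-producing cells, were followed across a mouse beadchip series. They are 3 of the 18118 gene symbols in the deposited table of signals, and each was taken by its own row (Pdx1 is filed there under the older symbol Ipf1). There were 18 arrays in 6 groups of 3. The groups were induced beta cells at 4 ages (day 10, then day 30, then day 60, and last 7 months), endogenous beta cells, and acinar cells. Every group, controls included, came from the pancreas of Rag1-/- mice, which lack mature T and B cells. The labels describe an adenovirus injected into the splenic lobe, removal of the islets, digestion of what remained, and sorting of induced cells by red Cherry fluorescence. They name neither the genes nor the promoter of the virus, nor how the beta cells were purified, and whether arrays stand for different animals is not stated. The p-values below therefore measure the spread between arrays, which may be technical.

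In the embryo, Pdx1 marks the pancreatic progenitors, and in the adult it is kept at a high level in beta cells, where it binds the insulin promoter. Neurog3 is switched on briefly in progenitors that become endocrine cells, downstream of relief from Notch signalling, and it turns on Neurod1, Insm1 and other endocrine factors. Mafa comes last: it is a basic leucine zipper factor of mature beta cells that binds the insulin gene together with Pdx1 and Neurod1. In published work with this approach the virus carries the 3 factors with a fluorescent marker. The table holds 1 value per gene and gives no probe position, so RNA from a virus and RNA from the cell's own gene cannot be told apart here. On the GRCm38.p6 assembly RefSeq places Pdx1 on chromosome 5 from 147270097 to 147275848, Neurog3 on chromosome 10 from 62133090 to 62134763, and Mafa on chromosome 15 from 75745501 to 75748321.

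Pairing and scale bear on every value. The day 60 and 7-month arrays are not independent: arrays with the same replicate number deviated from their group means together (r = 0.860, 0.843 and 0.786 over the tested genes), whereas no other pair of groups passed 0.1 for all 3 numbers. A day 60 array and the 7-month array of its number were as close (r = 0.9973 to 0.9977) as arrays within the other groups (r = 0.9970 to 0.9985), and closer than arrays within a late group (r = 0.9780 to 0.9864). No gene of 8942 was called between 7 months and day 60 by limma, and 208 had an unadjusted p under 0.05. Acinar arrays were dimmer (median signal 56.8 to 62.1) than induced arrays (70.9 to 81.6), and 5990 to 6390 genes were detected on them, against 6678 to 7745 on induced arrays and 7319 to 7406 on beta arrays. Differences below are on the log2 scale after background correction and quantile normalization unless another scale is named. With median scaling, or with the unscaled values of the series matrix, the median of all tested genes against acinar cells shifted by 0.42 to 0.95 or by 0.60 to 1.06, so there a gene is read relative to that shift. The share of called genes that were higher against acinar cells was 48.6% to 53.0% after quantile normalization, 69.2% to 80.3% after median scaling and 85.5% to 93.6% in the series matrix. Against beta cells it was 44.5% to 47.5%, 30.0% to 41.5% and 31.1% to 48.7% on the same scales.

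Marker genes were compared with the labels. Of 4 acinar enzymes in the file, all were measured on every array group, with summed signals over the negative controls of 72248 to 95780 on induced arrays, 2084 to 2471 on beta arrays and 98476 to 103153 on acinar arrays. All 5 beta markers were measured on induced and beta arrays, summing to 29737 to 55150 and 53349 to 55459, and Ins1, Ucn3 and Slc2a2 were not measured on acinar arrays. The arrays labelled endogenous beta also carried the hormones of other islet cells. Glucagon (Gcg) reached 18383 to 18860 there, somatostatin (Sst) 14328 to 15369 and pancreatic polypeptide (Ppy) 5790 to 6447. Their part in the beta-cell values of the 3 factors was not tested, and in all these bulk samples fewer cells of a type and less RNA per cell cannot be told apart.

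The 3 factors showed 3 different patterns. Pdx1 was brightest in endogenous beta cells and was several times dimmer in induced cells at every time. Mafa was the reverse, bright in induced cells at every time, weak in beta cells and not measured in acinar cells. Neurog3 was highest at day 10, lower at day 30, and spread widely between arrays at day 60 and 7 months.

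**Figure D1:**
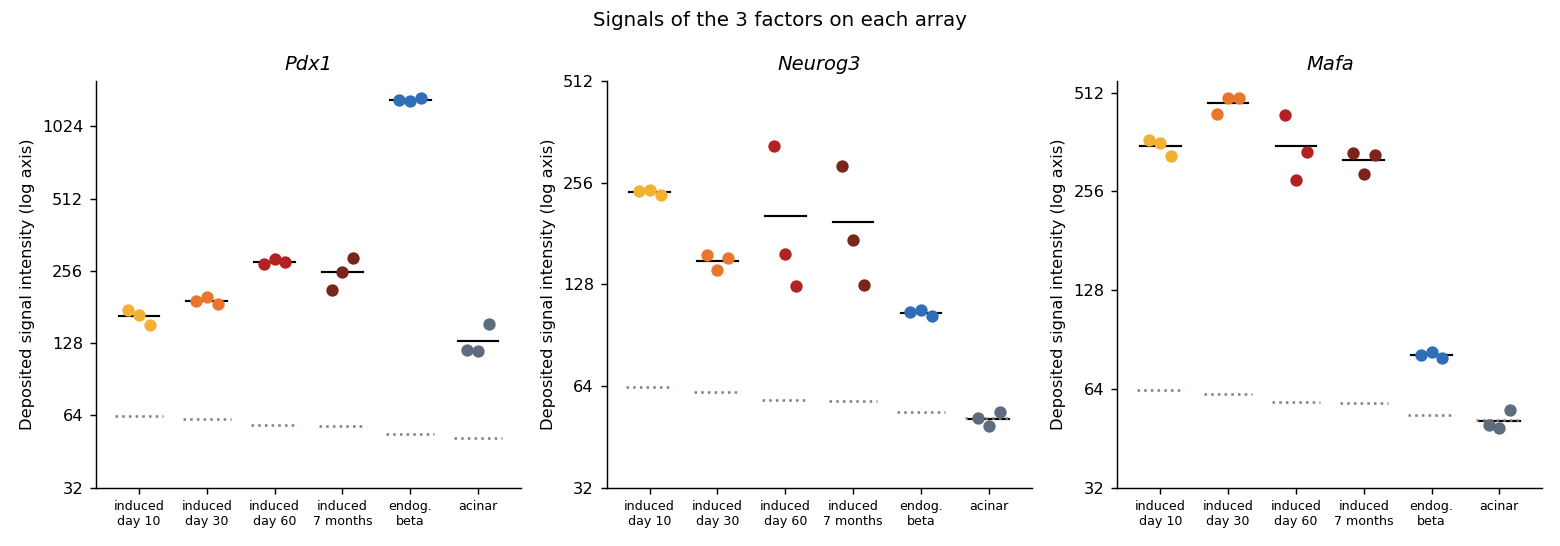
Deposited signal intensity (log axis) of Pdx1, Neurog3 and Mafa on each of the 18 arrays, with 1 point per array, the group mean as a black line, and the mean of the negative controls as a dotted line. Pdx1 stands at 1308 to 1343 on beta arrays, above every other array, while Neurog3 and Mafa lie at the level of the negative controls on acinar arrays.

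Pdx1, the homeodomain factor of pancreas progenitors and beta cells, had a detection p of 0 on every array. Its signals were 177, 168 and 152 at day 10, 192, 200 and 186 at day 30, 273, 286 and 280 at day 60, and 213, 253 and 291 at 7 months. Endogenous beta cells gave 1317, 1308 and 1343, and acinar cells 120, 118 and 153. Beta arrays stood far above all others, day 60 and 7 months overlapped each other, and acinar replicate 3 overlapped day 10. The mean of the negative controls was 49.9 to 63.9 per array, so that acinar Pdx1 was above background by 69.0, 68.6 and 99.8 units.

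Against beta cells, Pdx1 was lower at every induced time. After normalization it averaged 7.21 ± 0.14 at day 10, 6.95 ± 0.08 at day 30, 7.72 ± 0.08 at day 60 and 7.68 ± 0.19 at 7 months, against 9.93 ± 0.05 in beta cells (SD, n = 3 each). The differences were -2.72, -2.98, -2.21 and -2.26 (SE 0.10 each), which are 6.61-fold, 7.90-fold, 4.64-fold and 4.78-fold lower than in beta cells. Limma's adjusted p was at most 1.49e-11 in each, and no group of arrays overlapped the beta arrays. Pdx1 ranked 193rd, 87th, 219th and 220th from the lowest among the 8942 genes tested in these comparisons. Under median scaling the differences were -3.26, -3.17, -2.45 and -2.59.

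Set against acinar cells, Pdx1 had a direction that depended on the scale. On the normalized scale Pdx1 was lower at day 10 (7.21 ± 0.14 against 7.75 ± 0.12, difference -0.54, SE 0.10, adjusted p 0.000116 by limma) and at day 30 (difference -0.79, adjusted p 1.96e-06). At day 60 and 7 months the differences were -0.027 and -0.072 (adjusted p 0.811 and 0.518), and the arrays overlapped those of acinar cells. Median scaling gave 0.071, 0.17, 0.89 and 0.75 at the 4 times, and the series matrix gave 0.35, 0.57, 1.11 and 0.95, all positive. Relative to the median of all tested genes those values became -0.35, -0.51, 0.31 and 0.24 under median scaling, and -0.25, -0.36, 0.29 and 0.23 in the series matrix. On all 5 scales examined, Pdx1 relative to the typical gene was lowest at day 30. In deposited signals, day 30, day 60 and 7 months lay above acinar cells without overlap.

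**Figure D2:**
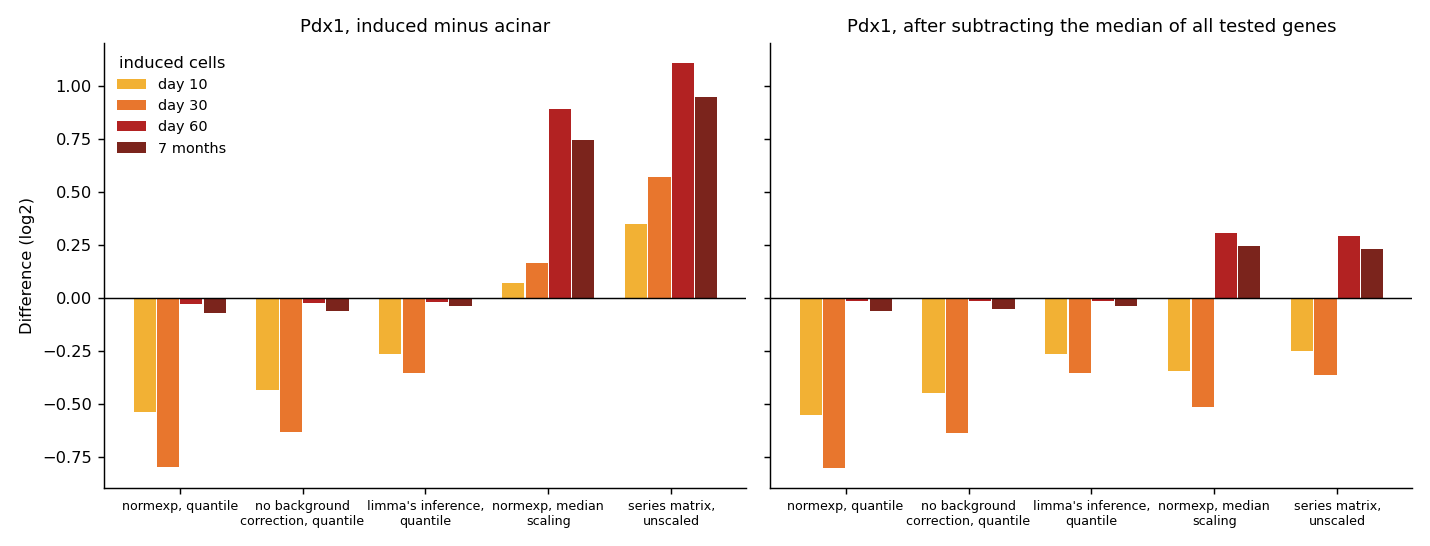
Difference of Pdx1 between induced and acinar cells (log2, bars from 0) at the 4 times under 5 ways of scaling the arrays, on the left as computed and on the right after subtracting the median difference of all tested genes. The sign turns with the scale on the left, from -0.54 to 0.35 at day 10 for example, and on the right the bars of day 10 and day 30 are negative under all 5.

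Endogenous beta cells exceeded acinar cells in Pdx1 by 2.19 (SE 0.10, adjusted p 7.98e-12 by limma), a 4.55-fold difference with no overlap. It kept its sign and call with median scaling (3.33, or 2.39 relative to all genes) and in the series matrix (3.35, or 2.29).

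Neurog3, the basic helix-loop-helix factor that commits progenitors to the endocrine lineage, gave signals of 242, 244 and 236 at day 10 and 156, 141 and 154 at day 30. At day 60 it gave 329, 158 and 127 in replicates 1, 2 and 3, and at 7 months 286, 173 and 128. Endogenous beta cells gave 106, 107 and 103, with detection p of 0, 0 and 0.00125, and acinar cells 51.4, 48.9 and 53.6, with detection p between 0.407 and 0.539. Day 10 arrays agreed closely, all induced arrays lay above all beta arrays, and acinar arrays were within 1 unit of their negative controls, so Neurog3 was not measured there. Late replicate 1 was the highest Neurog3 of the series in both late groups, and late replicate 3 the lowest of the induced arrays in both.

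In the normalized data Neurog3 averaged 7.89 ± 0.03 at day 10, 6.46 ± 0.11 at day 30, 6.94 ± 0.93 at day 60, 7.08 ± 0.88 at 7 months, 5.81 ± 0.07 in beta cells and 4.49 ± 0.02 in acinar cells (SD, n = 3 each). Since acinar arrays give only a bound, Neurog3 was at least 3.51-fold higher than in acinar cells at day 10, at least 1.31-fold at day 30, at least 1.82-fold at day 60 and at least 2.01-fold at 7 months. A bound sets the mean of the bright group against the mean, per acinar array, of the lowest measured signal or the gene's own, whichever is higher. The fitted differences behind them were 3.40, 1.98, 2.46 and 2.60 (SE 0.39 each), with adjusted p of 7.28e-07, 0.000236, 3.08e-05 and 1.73e-05 by limma. Because Neurog3 and Mafa entered the test through groups other than acinar cells, being higher than acinar cells in some group follows in part from the filter. Beta cells were higher than acinar cells by a fitted 1.32 (adjusted p 0.0057), with no bound above 1-fold. That excess was 0.31 relative to all genes with median scaling and -0.017 in the series matrix, so its direction relative to the typical gene was not the same on all scales.

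Against beta cells, where Neurog3 was measured on all arrays, it was higher by 2.09 at day 10 (adjusted p 0.000136 by limma), by 1.14 at day 60 (0.0145) and by 1.28 at 7 months (0.0073). At day 30 the difference was 0.66 (SE 0.39, adjusted p 0.137), although the 3 day 30 arrays lay above the 3 beta arrays. The SE is pooled over all 6 groups, and Neurog3 spread most at day 60 and 7 months (SD 0.93 and 0.88). At day 30 and in beta cells its SD was 0.11 and 0.07. Without day 60 replicate 1 the day 60 difference was 0.62 with an adjusted p of 0.0942. Without both late replicate 1 arrays, an alternative chosen after seeing the data, it was 0.62 with an adjusted p of 0.00466, and day 30 gave 0.66 with 0.00142. When limma itself inferred the negative controls, from detection p-values off the grid of steps too, the day 60 and 7-month differences shrank to 0.32 (adjusted p 0.0944) and 0.36 (0.0615) and were not called. The same inference gave 0.23 (0.21) between day 30 and acinar cells and 0.12 (0.503) between beta and acinar cells, neither of them called.

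Markers of some other cells moved with Neurog3 among the late arrays, and those of others did not. Of 3 alpha-cell markers only Gcg was measured on any array, and Irx2 was not. The summed alpha markers were 10759 and 9451 on replicate 1 at day 60 and 7 months, 7955 and 7030 on replicate 2, and 3627 and 3381 on replicate 3. They ran in the same order as Neurog3, and so did Ppy, over the controls by 414 and 392 on replicate 1, against 147 and 170 on replicate 2 and 113 and 95.7 on replicate 3. The 3 red blood cell markers summed to 7870 and 6858 on replicate 1, against 872 to 1201 on the other late arrays. Duct markers ran the other way, with 3556 and 2984 on replicate 1, 5206 and 5182 on replicate 2, and 7904 and 6885 on replicate 3. The summed delta markers, Sst and Hhex, ran in the order of Neurog3, with 1904, 1591 and 1195 at day 60. That order was the order of Sst, which made up most of each sum. Hhex was instead highest on replicate 3 in both late groups, where Neurog3 was lowest. Endothelial, macrophage, mesenchymal and beta markers were highest on replicate 2 in both late groups, and acinar markers on replicate 3. The part of all these markers in the Neurog3 values was not tested.

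**Figure D3:**
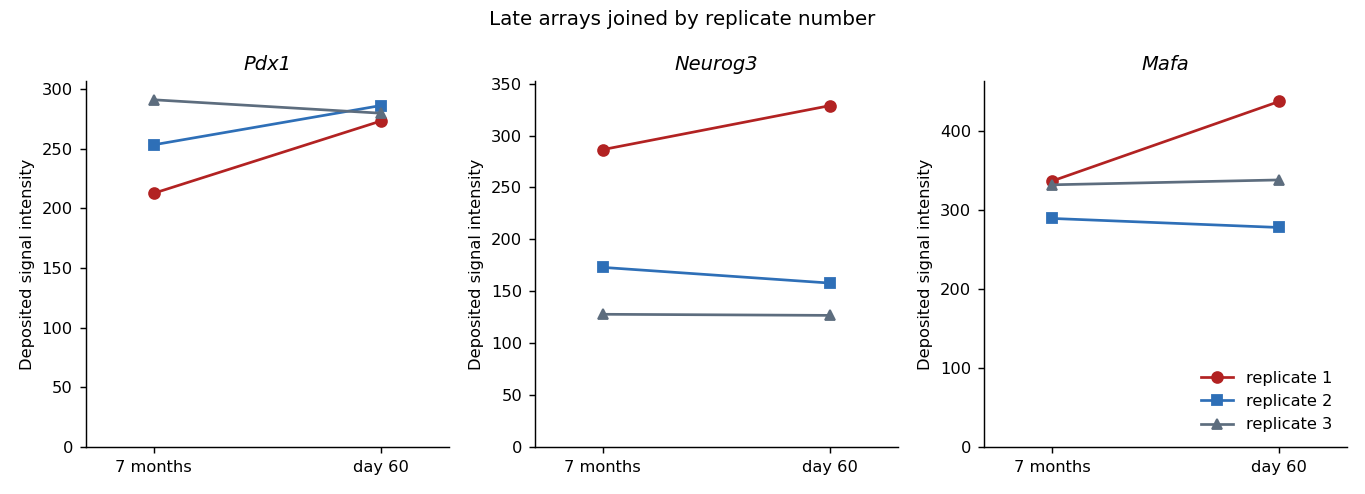
Deposited signal intensity of the 3 factors on the 7-month arrays (left) and the day 60 arrays (right), with a line joining arrays of the same replicate number. For Neurog3 the order of the 3 numbers is the same in both groups, from 286 and 329 on replicate 1 to 128 and 127 on replicate 3.

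Mafa, the factor of mature beta cells, was measured on every induced and every beta array. Its signals were 368, 360 and 328 at day 10, 442, 494 and 495 at day 30, 437, 278 and 338 at day 60, and 336, 289 and 332 at 7 months. Endogenous beta cells gave 81.4, 83.1 and 79.7, and acinar cells 49.8, 48.6 and 55.2. Every induced array was far above every beta array, and acinar arrays lay within 2 units of the mean of the negative controls (detection p between 0.301 and 0.601), so Mafa was not measured there. On beta arrays it passed detection with p of 3.41e-05 to 0.000348, at only 2.62 to 3.23 SDs of the negative controls above their mean. These p-values are off the grid of steps that most detection p-values follow in the table, and so are those of Mafa on acinar arrays and on the late arrays (3.28e-10 to 1.91e-06).

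Mafa averaged 8.49 ± 0.08 at day 10, 8.43 ± 0.09 at day 30, 8.07 ± 0.35 at day 60 and 8.10 ± 0.16 at 7 months, against 5.30 ± 0.06 in beta cells and 4.49 ± 0.06 in acinar cells (normalized log2, SD, n = 3 each). It exceeded beta cells by 3.19, 3.14, 2.77 and 2.81 (SE 0.13 each, adjusted p at most 2.79e-11 by limma), that is 9.12-fold, 8.80-fold, 6.84-fold and 7.00-fold. It was at least 5.31-fold higher than in acinar cells at day 10, at least 5.12-fold at day 30, at least 3.98-fold at day 60 and at least 4.07-fold at 7 months, with adjusted p at most 1.18e-12. No arrays of the groups overlapped in these comparisons, and all 8 differences stayed positive and called on every scale examined. With controls inferred by limma the 8 differences were smaller, at 0.88 to 1.29. Beta cells were higher than acinar cells by a fitted 0.81 (adjusted p 3.07e-05), with no bound above 1-fold. Relative to all genes that difference was -0.32 with median scaling and -0.39 in the series matrix, and under limma's inference it was 0.072 (adjusted p 0.537).

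The number of factors called is read against the share of all genes called, and near that share it is no result about them. Compared with acinar cells all 3 were called at day 10, where 79.8% of all tested genes were, all 3 at day 30 (79.3%), 2 at day 60 (77.0%) and 2 at 7 months (77.6%). Compared with beta cells all 3 were called at day 10 (80.0%), 2 at day 30 (74.4%), all 3 at day 60 (77.7%) and all 3 at 7 months (77.8%). Between beta and acinar cells all 3 were called, as were 79.4% of tested genes. The share of all genes whose arrays did not overlap was not counted, so a lack of overlap is given as description only.

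**Figure D4:**
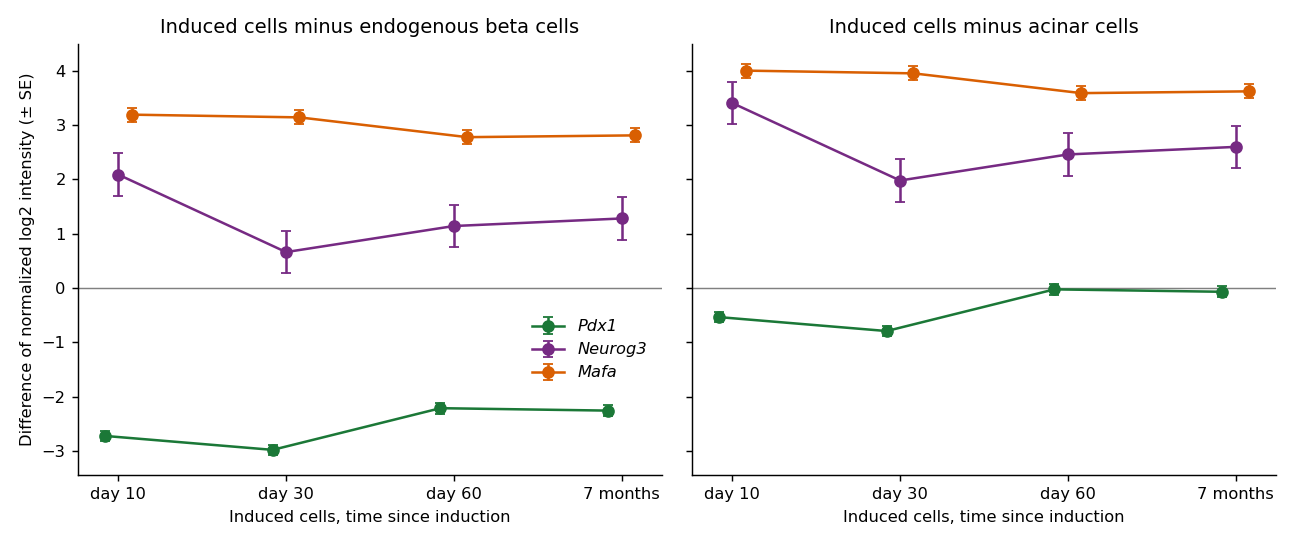
Difference of normalized log2 intensity (± SE) between induced cells and endogenous beta cells (left) or acinar cells (right) for the 3 factors at the 4 times. Mafa lies between 2.77 and 3.19 against beta cells and Neurog3 between 0.66 and 2.09, while their points against acinar cells, where neither was measured, are fitted values for which the data give only a bound. Pdx1 lies between -2.98 and -0.027, and its sign against acinar cells turns with other scaling.

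The 4 induced times were then compared with each other. A limma F-test over the 4 times called all 3 factors, with adjusted p of 5.12e-06 for Pdx1, 0.0216 for Neurog3 and 0.0118 for Mafa. It called 83.9% of all tested genes. For Neurog3 the call was lost on leaving out any day 10 array or day 30 replicate 2, with adjusted p of 0.0529 to 0.0628.

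Between day 30 and day 10, 2 of the 3 factors were called, as were 61.1% of tested genes. Neurog3 was lower at day 30 by a difference of -1.43 (SE 0.39, adjusted p 0.00504 by limma), 2.69-fold, with no overlap of arrays. It ranked 103rd from the lowest of the 8942 genes. The difference was -1.12 with median scaling (-1.30 relative to all genes), -0.68 in the series matrix (adjusted p 0.0331) and -0.57 with controls inferred by limma (0.00873). Pdx1 differed by -0.26 (adjusted p 0.0339), but its deposited signals were higher at day 30 than at day 10, median scaling gave 0.094, and the series matrix gave 0.22. Without day 10 replicate 1 the normalized difference was -0.20 (adjusted p 0.128). It also missed the threshold without day 10 replicate 2 (-0.23, 0.0954), day 30 replicate 1 (-0.26, 0.0706) or day 30 replicate 3 (-0.22, 0.111). Mafa differed by -0.050 (adjusted p 0.761) on the normalized scale, by 0.27 with median scaling (0.0902) and by 0.44 in the series matrix (0.0041). There the typical gene was itself 0.26 higher at day 30.

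Compared with day 30, Pdx1 was higher at day 60 by 0.77 (SE 0.10, adjusted p 7.38e-06), 1.70-fold, without overlap, and median scaling gave 0.72. Mafa was lower at day 60 by a difference of -0.36 (SE 0.13, adjusted p 0.024), yet day 60 replicate 1 overlapped day 30. The Mafa call was lost without day 60 replicate 2 (-0.21, adjusted p 0.142), day 60 replicate 3 (-0.33, 0.0667), day 30 replicate 2 (-0.34, 0.0703) or day 30 replicate 3 (-0.34, 0.0666). Neurog3 differed by 0.48 (adjusted p 0.3), and by -0.037 without day 60 replicate 1 (0.929). In this step 61.8% of tested genes were called.

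At 7 months compared with day 60, none of the 3 factors was called (0 of 8942 genes, 0%). The differences were -0.045 for Pdx1, 0.14 for Neurog3 and 0.033 for Mafa, each with an adjusted p of 1 by limma. With the replicate number as a block over the 6 late arrays, 0 genes were called and 552 had an unadjusted p under 0.05.

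At 7 months compared with day 10, 2 of 3 factors were called, as were 75.0% of tested genes. Pdx1 was higher at 7 months by 0.47 (adjusted p 0.000514 by limma) and Mafa lower by a difference of -0.38 (adjusted p 0.0149). The Mafa call was lost without 7-month replicate 2 (-0.31, adjusted p 0.0643), with median scaling (-0.29, 0.0628) and in the series matrix (-0.14, 0.29). Neurog3 differed by -0.81 (adjusted p 0.0717). With the replicate number as a block its adjusted p was 0.0411, and without 7-month replicate 1 the difference was -1.28 (0.00452). It also passed without day 60 replicate 1 (-0.81, 0.0202) or day 60 replicate 3 (-0.81, 0.045).

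Placed in order, normalized Pdx1 was highest in beta cells, then in acinar cells, day 60 and 7 months, which did not differ beyond their spread, then at day 10, and lowest at day 30. With median scaling and in the series matrix the acinar cells came last instead. For Neurog3 the order was day 10, 7 months, day 60, day 30, beta cells and acinar cells. Of its neighbours in that order only beta and acinar cells differed by the test. That call was lost when limma itself inferred the negative controls (0.12, adjusted p 0.503 by limma). All day 30 arrays lay above all beta arrays, although that step was not called. For Mafa, day 10 and day 30 led without a called difference, followed by 7 months and day 60, which did not differ, then beta cells, then acinar cells. Day 60 was called below day 30, and 7 months was not tested against day 30.

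The genes closest to the 3 factors by family were read next. Of 15 relatives 4 passed the detection filter. Neurod1, a basic helix-loop-helix relative and a direct target of Neurog3, gave signals of 109, 107 and 116 at day 10, 308, 319 and 335 at day 30, 501, 549 and 523 at day 60, 471, 559 and 523 at 7 months, 259, 271 and 296 in beta cells, and 54.8, 52.0 and 52.6 in acinar cells. It was higher at each induced time from day 30 than in beta cells, and below them at day 10, without overlap. Relative to beta cells it differed by -1.12 at day 10 (adjusted p 1.65e-08 by limma) and by 1.52 at 7 months (6.26e-10). It was at least 1.16-fold higher than in acinar cells at day 10 and at least 7.23-fold at 7 months. Between day 30 and day 10, while Neurog3 was lower, Neurod1 was higher by 1.53 (adjusted p 7.32e-09).

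Mafg, a small Maf protein with no activation domain, was higher than in acinar cells by 1.73 at day 10 (adjusted p 1.3e-12 by limma) and by 2.02 at 7 months. Its difference from beta cells was 0.43 at 7 months (2.23e-05) and turned negative with median scaling and in the series matrix. Maff, another small Maf, gave 204, 200 and 208 at day 10, 215, 219 and 223 at day 30 and 57.4, 49.1 and 55.7 in acinar cells. Its day 10 detection p missed the threshold in spite of those signals, so it is given no fold against acinar cells, where it was not measured either. Neurod2, the last of the 4, was measured on 1 day 10 array and 1 acinar array, and it differed by -0.049 (adjusted p 0.77).

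Factors that act with or after Neurog3 in endocrine differentiation made a list of 14, of which 9 passed the filter (Rfx3, Pax6 and Mnx1 were among those that did not). At day 10, 8 of the 9 were higher than in acinar cells and 1 was lower (40.2% and 39.6% of tested genes), with a median difference of 3.39 (1.81 with unmeasured groups at their bound) beside 0.014 for all genes. Of the 9, 7 were measured on no acinar array and passed the filter through other groups, so the count and the median describe them and support nothing. Insm1, a zinc finger repressor induced by Neurog3, was at least 24.6-fold higher (adjusted p 6.88e-15 by limma). Nkx2-2, a homeodomain factor of endocrine precursors, was at least 7.17-fold higher, and Myt1, a zinc finger factor of the same cells, at least 3.52-fold. Cdkn1a, which encodes the cell cycle inhibitor p21 and is a known target of Neurog3, was higher by 3.93 (3.47e-15) and was measured on 2 of 3 acinar arrays. Isl1, a LIM homeodomain factor of all islet cells, was the member that was lower. It was not measured at day 10, and acinar cells were at least 1.25-fold above it. Its deposited signals overlapped, at 59.4, 73.0 and 61.9 at day 10 against 75.9, 70.6 and 76.6 in acinar cells. For the list at day 10, median scaling kept 8 higher and 1 lower, and the series matrix gave 8 and 0. At day 30 the sign of Isl1 against acinar cells turned in the series matrix.

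At day 30 compared with day 10, 6 of 9 were higher and 1 lower (31.1% and 30.0% of all tested genes), led by Rfx6 at 2.26, a winged-helix factor needed for islet formation, Pax4 at 1.84, Neurod1 at 1.53 and Myt1 at 1.03. At day 60 compared with day 30, 7 of 9 were higher and 0 lower (30.2% and 31.6% of tested genes). Isl1 was at least 3.22-fold higher, Nkx2-2 differed by 2.12, Rfx6 by 1.95 and Myt1 by 1.29 (adjusted p at most 2.65e-07 by limma). Insm1 was also called (0.46), with -0.036 in the series matrix. For this step median scaling gave 6 higher and 1 lower, with the signs of Insm1 and Cdkn1a turned. Markers of some other cells were higher over the same steps. The 5 mesenchymal markers summed to 30.5 to 35.6 at day 10, 1114 to 1297 at day 30 and 2632 to 5990 at day 60. Most of those sums was Dcn, with signals of 94.4 to 99.0, then 1096 to 1226, then 2609 to 5579. Col1a2 was mostly lower at day 60 (72.6, 110 and 90.5) than at day 30 (109, 121 and 133). The alpha markers summed to 737 to 796, then 3132 to 3618, then 3627 to 10759, and the red blood cell markers to 88.9 to 104, then 251 to 296, then 907 to 7870. Their part in these counts was not tested. Compared with beta cells, 2 were higher and 7 lower at day 10 (38.0% and 42.0% of tested genes), 4 and 5 at day 30 (34.5% and 39.9%), 6 and 2 at day 60 (34.6% and 43.1%), and 6 and 2 at 7 months (34.7% and 43.1%). The median was -1.54 at day 10 and 0.98 at 7 months, beside -0.022 and -0.098 for all genes.

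At 7 months the members on either side of the beta-cell level were distinct. Isl1 had signals of 135, 203 and 185, against 4332, 4379 and 4903 in beta cells, a difference of -4.94 (adjusted p 3.02e-12 by limma). Nkx6-1, which beta cells need to keep their identity, had 545, 496 and 433, against 2538, 2379 and 2769 in beta cells (-2.17). Pax4, a paired-box repressor of the alpha program that is active in the embryo, had 454, 253 and 369, against 47.5, 46.5 and 49.6 in beta cells, where it was not measured, and was at least 6.78-fold higher. Rfx6 was above beta cells by 2.18, with signals of 3607, 3867 and 3548 against 1211, 1225 and 1317. None of these groups of arrays overlapped, in a comparison where 77.8% of tested genes were called. Of all listed genes, 13 have some 7-month values deposited with more digits than the rest of the table, Neurod1, Nkx2-2, Nkx6-1 and Rfx6 among them, and none of the 3 factors does.

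**Figure D5:**
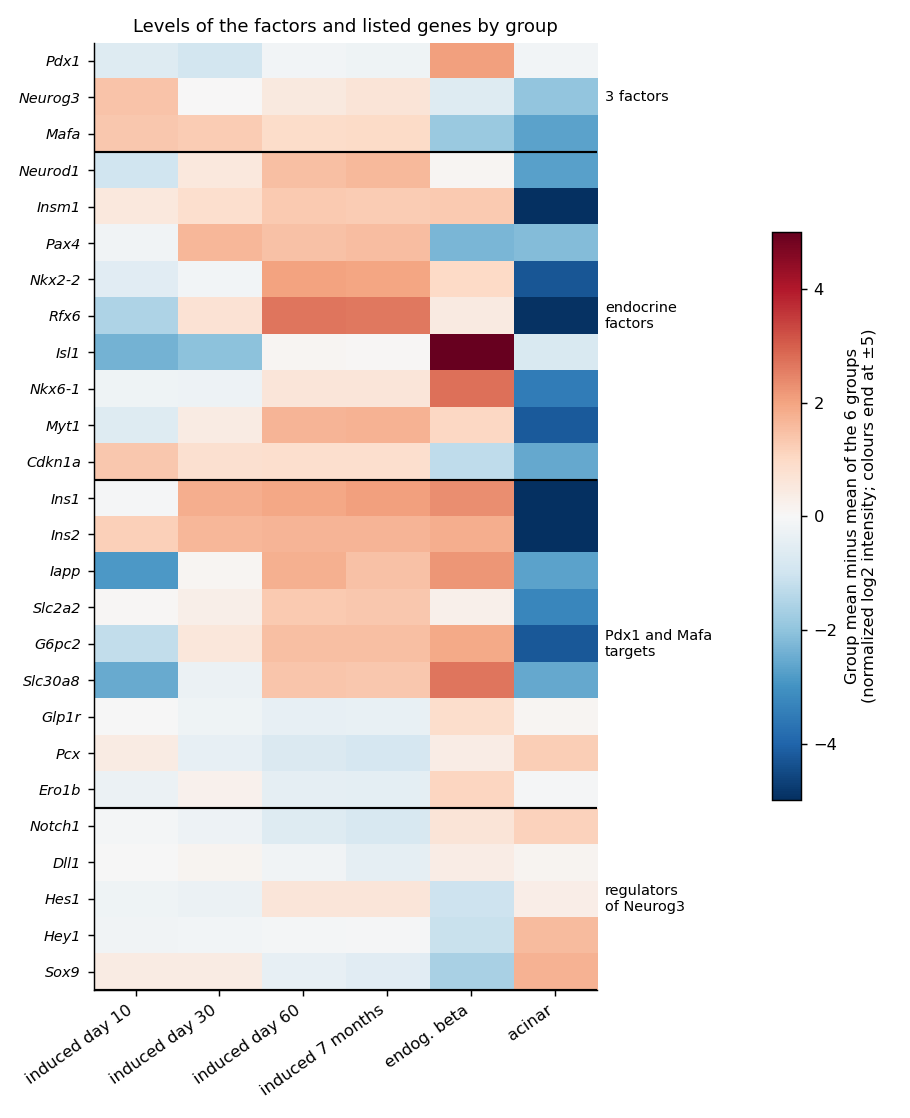
Group means of the 3 factors and of tested members of 3 lists, each minus its own mean over the 6 groups (normalized log2 intensity, with colours ending at ±5), with the groups across and the genes down the page. Pdx1 is red in the beta column alone, and Mafa is red in the 4 induced columns and blue in the beta and acinar columns. Some drawn genes change sign against acinar or beta cells under other scaling at some times. Ero1b, Pcx, Glp1r, Iapp, Ins2, Isl1, Hes1 and Notch1 are among them.

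Genes known as direct targets of Pdx1 or Mafa made a list of 12, of which 10 were tested (Pcsk1 and Prlr were not). Compared with acinar cells 5 were higher and 2 lower at day 10 (40.2% and 39.6% of tested genes), 8 and 2 at day 30 (39.6% and 39.7%), 7 and 3 at day 60 (37.6% and 39.4%), and 7 and 3 at 7 months (37.8% and 39.9%). From day 30 on, 1 of those counted as lower is Glp1r, which was measured neither in induced nor in acinar cells. Ins1, Slc2a2 and Slc30a8 were not measured in acinar cells either and passed the filter through other groups. At day 10 median scaling gave 6 higher and 0 lower and the series matrix 9 and 0, with Iapp, Glp1r, Pcx and Ero1b turned in the series matrix. The series matrix also gave 9 and 0 at day 30, and 8 and 1 at day 60 and at 7 months. The insulin genes led at day 10. Ins1 was at least 73.8-fold higher (adjusted p 6.03e-18 by limma), and Ins2 was higher by 9.22 (3.76e-15) and measured on 2 of 3 acinar arrays. Slc2a2, the glucose transporter of rodent beta cells, was at least 4.57-fold higher, and G6pc2, a glucose-6-phosphatase of islets, was higher by 2.99. The list's median was 0.49 (0.47 at bounds) beside 0.014 for all genes at day 10, and 4.01 (3.04 at bounds) beside -0.012 at 7 months.

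At day 30 compared with day 10, 5 targets were higher and 2 lower (31.1% and 30.0% of tested genes). Iapp, which encodes the amyloid peptide released with insulin, was higher by 2.96 (adjusted p 2.09e-08 by limma), Ins1 by 1.88 and G6pc2 by 1.78. Slc30a8, the zinc transporter of insulin granules, was at least 2.24-fold higher. At day 60 compared with day 30, again 5 were higher and 2 lower (30.2% and 31.6%), with Slc30a8 and Iapp both higher by 1.68, Slc2a2 by 1.02 and G6pc2 by 0.96. Compared with beta cells 0 targets were higher and 7 lower at day 10 (38.0% and 42.0% of tested genes), 0 and 8 at day 30 (34.5% and 39.9%), 1 and 6 at day 60 (34.6% and 43.1%), and 1 and 7 at 7 months (34.7% and 43.1%).

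At 7 months the largest deficit against beta cells was that of Ero1b, an oxidase of insulin folding, which differed by -1.54 (adjusted p 9.21e-11 by limma). Slc30a8 differed by -1.32 (1.39e-07), with signals of 357, 517 and 459 against 1403, 1269 and 1426 in beta cells. Pcx, the pyruvate carboxylase, differed by -1.19. Glp1r, the incretin receptor, was not measured at 7 months, and beta cells were at least 1.30-fold above it. Slc2a2 was the only target above beta cells, by 1.07 (3.72e-06), with 764, 871 and 664 against 546, 526 and 561. Ins1 and Ins2 each held the same rank on all 3 beta arrays, so quantile normalization gave them identical values there (14.70 and 14.87, SD 0), and no difference from beta cells is given for them. In deposited signals Ins2 had 28324, 29880 and 23384, against 27222, 27106 and 25131 in beta cells, and Ins1 had 22931, 21033 and 17114, against 21782, 21705 and 21169. Both overlapped. Ins1 is among the members counted as lower than in beta cells at every time.

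Regulators of Neurog3, the Notch pathway and the progenitor factors upstream of it, made a list of 12, of which 6 were tested. At day 10, 0 were higher and 5 lower than in acinar cells (40.2% and 39.6% of tested genes), with a median of -1.30 beside 0.014 for all genes. Hey1, a Notch target, differed by -1.74 (adjusted p 1.56e-10 by limma), Sox9, a factor of progenitors and ducts, by -1.33, and the receptor Notch1 by -1.26. These counts moved with the scale, to 0 higher and 4 lower under median scaling and to 2 higher and 1 lower in the series matrix. At day 30 the counts were 0 higher and 5 lower after quantile normalization, 2 and 2 under median scaling, and 3 and 0 in the series matrix. Hes1, the Notch target that represses Neurog3, differed from acinar cells by -0.56 at day 10 and turned positive on both other scales. Against beta cells at 7 months, Hes1 was higher by 1.61 (1.38e-08), Hey1 was at least 1.63-fold higher, Sox9 was higher by 1.03, and Notch1 differed by -1.41, and none of these signs turned.

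Transcription factors of acinar cells were compared at the same times. Of 5, Rbpjl was not tested. Ptf1a, a factor of acinar enzyme transcription, gave 1564, 1556 and 1483 at day 10 and 819, 830 and 873 at day 30. It gave 985, 1247 and 1645 at day 60 and 838, 1108 and 1733 at 7 months. Beta cells gave 54.2, 53.4 and 47.3, and acinar cells 874, 868 and 1086. Ptf1a was measured on every induced and acinar array and on no beta array. At 7 months it was at least 27.5-fold higher than in beta cells (adjusted p 6.65e-13 by limma). Its normalized difference from acinar cells was -0.61 at day 10 and turned positive with median scaling. Bhlha15, the secretory factor Mist1, was lower than in acinar cells by a difference of -1.61 at day 10 and -2.01 at 7 months, and Nr5a2, a nuclear receptor of acinar cells, by -1.38 and -1.24. Compared with acinar cells 1 factor was higher and 3 were lower at day 10 (40.2% and 39.6% of tested genes), and 0 and 4 were at each later time (37.6% to 39.6% and 39.4% to 39.9%). The fourth, Gata4, was measured on no acinar, day 60 or 7-month array, although it is counted. Median scaling gave 2 higher and 2 lower at day 10, 0 and 3 at day 30, and 0 and 2 at day 60 and at 7 months. The series matrix gave 2 and 1, 1 and 1, 3 and 1, and 1 and 1 at the 4 times, with the signs of Ptf1a, Nr5a2 and Gata4 turned at day 60 and 7 months.

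The genes whose 6 group means ran most like each factor were listed by the root mean square difference of centred log2 means, over 8447 genes, as a description without a test. For Pdx1 they were Atp2b1, a plasma membrane calcium pump (0.20), the cell adhesion gene Nrcam (0.22), the collagen hydroxylase subunit P4ha1 (0.22), Zfp91 (0.23) and Cenps (0.23). For Neurog3 they were Vps37d (0.13), Cd68 (0.25), Tmem86a (0.27), Abca7 (0.30) and Spire2 (0.32). Cd68 is a lysosomal protein used here as a macrophage marker, and it peaked at day 10 like Neurog3, at 1.53 above its own mean beside 1.44 for Neurog3. The 5 macrophage markers summed to 662 to 1568 at day 10, 461 to 882 at day 30, 454 to 2666 at day 60, 404 to 2301 at 7 months, 143 to 182 in beta cells and 94.8 to 135 in acinar cells, and their part in the Neurog3 values was not tested. Only markers measured on an array enter its sum, and Lyz2 passed detection unevenly. It entered on replicate 2 alone at day 10 (signals 975, 856 and 851) and at day 60 (465, 1695 and 867). On acinar arrays Lyz2 never entered, at 193, 172 and 240. For Mafa they were Riiad1 (0.27), BC025206 (0.29), Cdkn1a (0.31), Srf, the serum response factor (0.31), and Tppp3 (0.31). All 5 like genes of Pdx1 were highest in beta cells, and all 5 of Mafa were below their own mean in both beta and acinar cells. These shared patterns, and the day 10 peak that Cd68 shares with Neurog3, follow from how the genes were chosen.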

How the data were processed

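RNA of sorted or dissociated pancreatic cells was hybridised to Illumina MouseRef-8 v2.0 beadchips, per the labels' protocols. Each title gives a sample's group and replicate number. Per the file headers, the authors deposited an intensity per gene symbol and array beside its detection p-value, with no background subtraction visible in the intensities. The deposited series matrix holds the log10 of the same intensities (largest difference 5.52e-10). How probes were summarised to genes, and by which software, is not given in the sources used here.

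Negative controls were inferred from detection p-values on the grid of 798 steps. Of the genes, 4419 have detection p-values more than 0.001 of a step off it, and some smaller departures, near 0, count as on it. Signals were corrected by normexp (offset 16), quantile normalized and taken to log2 in limma 3.58.1 with R 4.3.3. The test took the 8942 genes that had a detection p under 0.01 on 3 or more arrays, and 9176 stayed out. All 3 factors passed this filter. A single model of all 18 arrays (lmFit, then eBayes with 2.9 prior degrees of freedom) gave 13 comparisons, plus an F-test for induced times. Calls are at an adjusted p (Benjamini-Hochberg, over all tested genes) under 0.05. The fit was tested on simulated data. A gene is measured on an array where its detection p is under 0.01 and it exceeds the negative control mean. In a median at bounds, an unmeasured gene counts at its bound, or at 0 where it has none above 1-fold.

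Current symbols came from a RefSeq table for GRCm38.p6 (12036 symbols current, 4903 updated, 1179 unmatched and kept). Same-numbered arrays were checked for pairing, which held between day 60 and 7 months alone, so the block is an alternative. The other alternatives were median scaling, the series matrix, no background correction, limma's own inference of controls, other filters and leaving out arrays. The text names the 3 factors, up to 4 called members of each list with the largest differences, Neurod1, and the 5 genes most like each factor. Some list members count in their lists but are not reported here. The members and lists were chosen with earlier results of these data known.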

Additional observations from a re-analysis of the deposited data

Results flagged for a closer look

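The level of each factor above or below acinar cells was compared between successive induced times, and 4 of these changes passed the test of the difference itself by limma. Of all tested genes, 61.1% were called between day 30 and day 10, 61.8% between day 60 and day 30, and 0% between 7 months and day 60. Near those shares the number of changes is no result about the factors. Pdx1 differed by -0.26 between day 30 and day 10 (1.19-fold lower at day 30, adjusted p 0.0339), with a sign that turned under median scaling. Its call was lost on leaving out any 1 of 4 arrays. Pdx1 differed by 0.77 between day 60 and day 30 (1.70-fold higher at day 60, 3 of 3 day 60 arrays above all day 30 arrays). Neurog3 differed by -1.43 between day 30 and day 10, with 3 of 3 day 30 arrays below all day 10 arrays. Mafa differed by -0.36 between day 60 and day 30, and 1 of the 3 day 60 arrays overlapped day 30. This Mafa call, too, was lost on leaving out any 1 of 4 arrays.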

How the results depend on the processing

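Over 42 results on the 3 factors (13 comparisons and the range over induced times for each), direction and call held in all 42 without background correction, without the detection filter and with genes required on all arrays of a group. The counts of called genes stayed within 1.5 times under every alternative run. With limma's own inference of negative controls, 6 calls were lost: Mafa (0.072) and Neurog3 (0.12) between beta and acinar cells, Neurog3 at day 30 against acinar cells (0.23), at day 60 (0.32) and at 7 months (0.36) against beta cells, and Pdx1 between day 30 and day 10 (-0.091). Median scaling turned Pdx1 against acinar cells to 0.071, 0.17, 0.89 and 0.75 at the 4 times, Pdx1 between day 30 and day 10 to 0.094, Mafa between day 30 and day 10 to 0.27 and Mafa between 7 months and day 60 to -0.082, and it ended the calls of Mafa between 7 months and day 10 (-0.29) and of the Neurog3 range (1.12). The series matrix turned the same results, to 0.35, 0.57, 1.11 and 0.95, to 0.22, to 0.44 and to -0.12, turned Neurog3 between 7 months and day 60 to -0.018, and ended the same 2 calls (-0.14 and 0.68). The replicate block changed 1 call, Neurog3 between 7 months and day 10 (-0.81, adjusted p 0.0411 by limma), and over the 6 late arrays alone it changed none. Without both late replicate 1 arrays, an alternative chosen after seeing the data, Neurog3 was called between 7 months and day 10 (-1.28) and between day 30 and beta cells (0.66), and 4 results that were not called changed sign: Neurog3 between day 60 and day 30 (-0.037), and Pdx1 at day 60 against acinar cells (0.0066), at 7 months against acinar cells (0.029) and between 7 months and day 60 (0.023). Leaving out each array in turn gave 756 values, of which 14 lost a call, 3 gained one and 9 changed sign. The ranges of the results concerned were -0.34 to -0.20 for Pdx1 between day 30 and day 10, -0.083 to 0.040 and -0.16 to 0.029 for Pdx1 against acinar cells at day 60 and 7 months, and -0.13 to 0.056 for Pdx1 between 7 months and day 60. For Neurog3 they were 0.62 to 1.53 at day 60 against beta cells, -0.037 to 0.87 between day 60 and day 30, -0.33 to 0.66 between 7 months and day 60, -1.28 to -0.40 between 7 months and day 10, and 1.36 to 1.47 for the range over times. For Mafa they were -0.55 to -0.21 between day 60 and day 30, -0.12 to 0.22 between 7 months and day 60, and -0.47 to -0.31 between 7 months and day 10. The causes of these changes were not tested. The number of arrays, 3 a group, limits the precision, and Mafa on beta arrays and Neurog3 and Mafa on acinar arrays are limited by their small signal over the negative controls.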

Other observations

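Cdkn1a, the gene of the p21 cell cycle inhibitor, stood both in the endocrine list and among the genes most like Mafa. Its signals were 3381, 3116 and 3255 at day 10, 2643, 2615 and 2677 at day 30, 1845, 2062 and 1976 at day 60 and 1512, 1867 and 1984 at 7 months, against 650, 648 and 688 in beta cells and 111, 110 and 135 in acinar cells. Every induced array lay above every beta and acinar array. At 7 months it was higher than in beta cells by 2.14 (adjusted p 4.11e-12 by limma, 3 of 3 arrays).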
